A study of Homo sapiens with 4 samples.

Results

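The lysosome and vacuolar ATPase genes were examined in human lung cancer cells after silencing of circZFR, a circular RNA made from exons of *ZFR*. The genes were taken by name: members of the TFEB family of transcription factors, proteins of the lysosomal membrane, lysosomal hydrolases with their helper proteins, and subunits of the vacuolar ATPase (V-ATPase). All 45 named genes were found among the 40205 genes listed, and all 45 passed the filter on low values. Cells had been transfected for 24 h, either with a negative control siRNA (NC) or with an siRNA against circZFR (si-circZFR), and each group had 2 RNA-seq libraries, numbered 1 and 2. The labels name H1299 cells, whereas the article and the design text name A549. Both are established human lung cancer lines, and 1 line was used for all 4 libraries according to the labels. *AKR1B10*, an enzyme abundant in A549 cells, was at 1296 to 1677 scaled RPKM in the 4 libraries. Because the sources differ on the line, the cells are named by their transfection groups here.

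The lysosome degrades proteins, lipids and glycans delivered by endocytosis and autophagy. Its hydrolases work in an acidic lumen, which the V-ATPase maintains by pumping protons: the cytosolic V1 sector hydrolyses ATP and drives the proton channel in the membrane-embedded V0 sector. TFEB and TFE3, together with MITF, bind a palindromic E-box called the CLEAR element (coordinated lysosomal expression and regulation) in the promoters of many lysosomal genes and are held in the cytosol by mTORC1 when nutrients are plentiful.

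Promoter sequence was available for 35 of the 45 genes (RefSeq, GRCh38.p14, 250 bases before to 50 bases after the start), and these were searched on both strands for the E-box CACGTG, for the longer palindrome TCACGTGA, and for the latter with a further G in front and a C behind (the extended palindrome). Each of these contains the shorter one and is its own reverse complement. CACGTG was present in 11 of the 35 promoters (31.4%), against 10.4% of the promoters of all genes tested and 7.43% of all 27305 promoters. TCACGTGA was present in 6 (17.1%), against 2.06% of the promoters of genes tested. The extended palindrome was present in 3 (8.57%), against 0.868%. Among 53 promoters of other lysosome genes outside the 45, these 3 motifs were present in 24.5%, 11.3% and 7.55%, in the same order. The 6 promoters with TCACGTGA are shown because they carry the fullest match to the CLEAR element. Capitals mark the longest of the 3 motifs found at the site, and each window is given 5′ to 3′ on the gene's strand.
*MCOLN1*, chr19:7522601-7522624, plus strand: ctaccggGTCACGTGACcgaggca
*GAA*, chr17:80101541-80101564, plus strand: cccgccgGTCACGTGACccgcctc
*ATP6V1G1*, chr9:114587702-114587725, plus strand: ctgtgcgGTCACGTGACaacgggg
*CTSA*, chr20:45891301-45891324, plus strand: gccggagtTCACGTGActcgtaca
*LAMP1*, chr13:113297202-113297225, plus strand: ccgcgggaTCACGTGAcgcccggg
*ATP6V0D1*, chr16:67481202-67481225, minus strand: ccttatggTCACGTGAggcgcttg
The *GAA* promoter held the extended palindrome at a second place, and the *MCOLN1* promoter also held TCACGTGA further upstream. The *LAMP1* promoter held TCACGTGA at 2 places and CACGTG at 6 in all, the most of the 35. These matches describe the letters of the window and say nothing of binding in these cells.

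The reads had been aligned by the authors and deposited as RPKM, in which a gene's reads are divided by its length and by the depth of the library. Library totals recovered from the values ranged from 11040050 to 12816868 reads. Trimmed means set 1 scaling factor per library (0.904 to 1.11), and the scaled RPKM was tested by limma on log2(scaled RPKM + 1), so that a log2FC is on this scale and understates the difference of low genes. The threshold was FDR < 0.05 with |log2FC| > 1. *ZFR*, the host gene of circZFR, was at 26.0 and 31.9 scaled RPKM in NC and at 5.25 and 4.63 in si-circZFR (log2FC = -2.33, standard error 0.17, FDR = 0.0388 by limma). Reads of circular and linear *ZFR* RNA cannot be told apart in these values. The length behind them was 4715 bases, and circZFR holds only some of the exons of *ZFR*. The article reports, by RT-PCR, that the siRNA left *ZFR* expression without detectable change. Whether linear *ZFR* RNA was lowered in these libraries was not tested. NC 2 stood apart from NC 1 by its short genes: across the 13885 genes tested, Spearman's rho between gene length and the difference NC 2 minus NC 1 was -0.344, and it was 0.294 between gene length and the log2FC (descriptions across genes, which are not independent).

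In bulk RNA, a lower level in every cell and expression in fewer cells cannot be told apart. None of the 45 genes passed the threshold by limma, against 0.0576% of all genes tested. With limma-voom on the recovered reads, none of the 45 passed either, against 2.18% of all genes. Without adjustment, 8 genes were lower and 1 was higher at p under 0.05 (17.8% and 2.22% of the 45), where 11.5% and 10.1% of all genes tested lay. The log2FC was below 0 for 35 of the 45 genes, against 49.4% of all genes, and ran from -0.77 (*NPC2*) to 0.64 (*TFEB*) with a median of -0.17 (0.01 over all genes). Both si-circZFR libraries lay below both NC libraries for 24 genes and above both for 8, where each applied to 28.1% of all genes tested. With 2 libraries in each group, an exact two-sided permutation test of a single gene cannot give a p below 0.333. With the RPKM as deposited, the median of all genes was itself 0.15, 1 gene was lower and 5 were higher at p under 0.05 (6.94% and 15.4% of all genes), 23 of the 45 log2FC values were below 0, and the 2 directions of separation held for 14 and 13 genes (18.2% and 39.6% of all genes). Relative to the median of all genes, the median of the 45 genes was then -0.16.

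**Figure D1:**
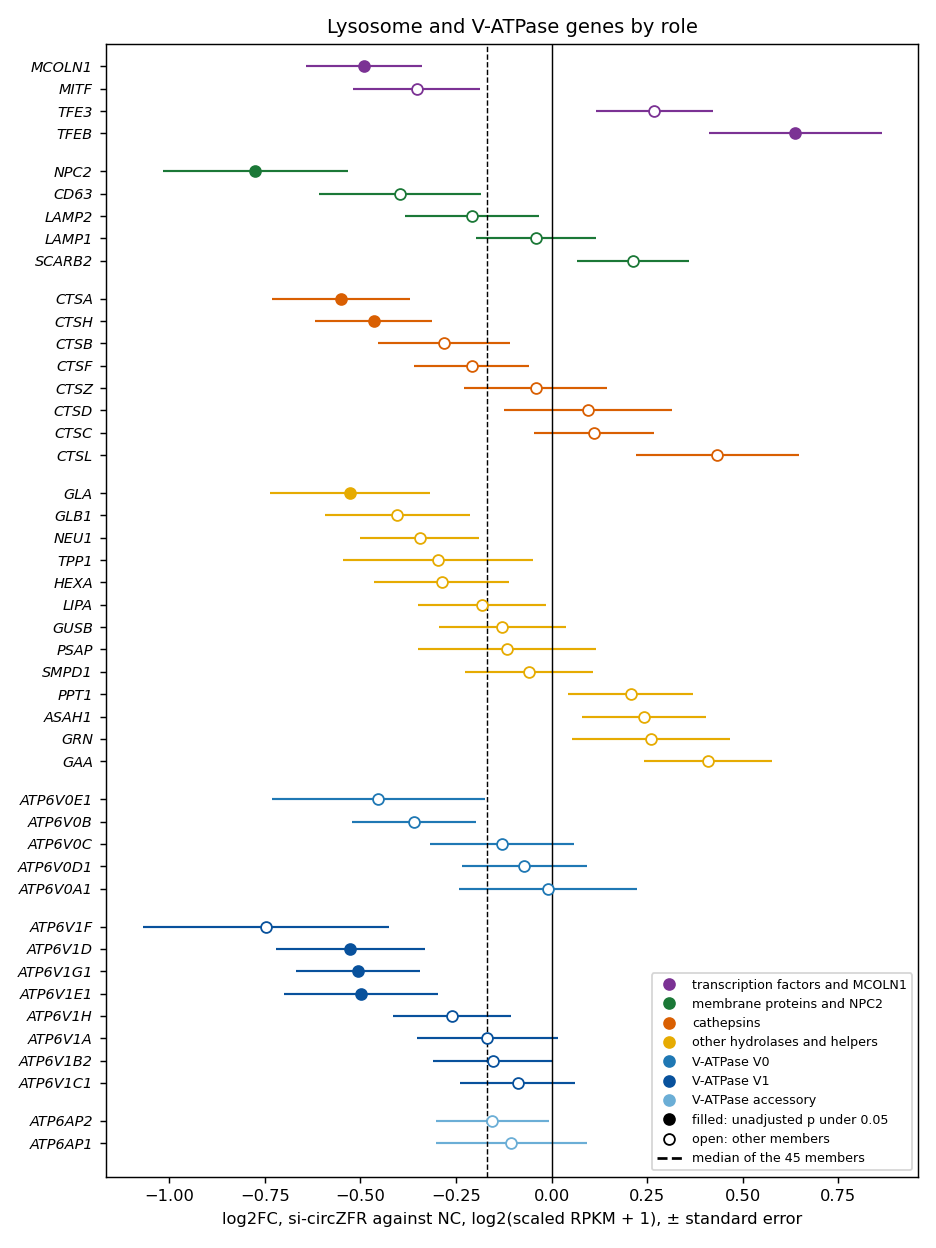
The log2FC of each of the 45 genes (x axis, si-circZFR against NC on log2(scaled RPKM + 1), bars are standard errors from limma), grouped by role, with filled points for an unadjusted p under 0.05. Most points lie left of 0, including all 15 V-ATPase genes of the 45 (8 of 15 with the RPKM as deposited), while *TFEB*, *CTSL* and *GAA* lie farthest to the right.

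The transcription factors did not lie on the same side. *TFEB*, the best known regulator of lysosomal genes, was the lowest expressed of the 45 genes, at 0.920 and 1.51 scaled RPKM in the NC libraries and at 2.75 and 2.10 after silencing. These values rest on 26, 42, 76 and 62 reads. Both si-circZFR values were above both NC values (log2FC = 0.64, standard error 0.23, FDR = 0.19 by limma), and the gene did not pass. The log2FC of *TFEB* was 1.02 with limma-voom, 0.97 with a pseudocount of 0.1 and 0.44 without NC 1.
*TFE3*, which binds the same element, was far more abundant at 43.3 in both NC libraries and at 52.7 and 52.2 in si-circZFR (log2FC = 0.27, standard error 0.15, FDR = 0.354 by limma). *MITF*, the family member known from melanocytes, was at 7.26 and 6.17 in NC and at 5.16 and 4.89 in si-circZFR, with a log2FC of -0.35. The libraries of both groups did not overlap for any of these 3 genes, *TFE3* and *TFEB* being higher and *MITF* lower in si-circZFR. Each direction of separation applied to 28.1% of all genes tested.
*MCOLN1* encodes the lysosomal calcium channel TRPML1. Its scaled RPKM was 7.52 and 7.53 in NC and 4.99 and 5.14 in si-circZFR, so that the replicates were close and both groups apart. The log2FC of *MCOLN1* was -0.49 with a standard error of 0.15 (FDR = 0.16 by limma), the smallest FDR among the 45 genes.

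Among the membrane proteins and NPC2, *NPC2* had the lowest log2FC of all 45 genes. NPC2 is the soluble lumenal protein that hands cholesterol to NPC1. Its level was 112.1 and 165.5 scaled RPKM in NC and 85.3 and 73.6 in si-circZFR, 138.8 ± 37.7 against 79.4 ± 8.29 (SD, n = 2 each). The log2FC was -0.77 (standard error 0.24, FDR = 0.164 by limma). The NC libraries themselves differed by 0.56 on the same log2 scale, with NC 2 the higher, and the gene is short, at 897 bases. Without NC 2 the log2FC of *NPC2* was -0.50, and without NC 1 it was -1.06 and passed the threshold (FDR = 0.0417 by limma, 0.0417 to 0.69 over all alternatives). In that fit 6.93% of all genes passed, and *NPC2* was the only 1 of the 45 to do so.
*CD63*, a tetraspanin of late endosomes and the most abundant gene of this group, was at 198.6 and 221.7 in NC and at 142.8 and 177.3 in si-circZFR (log2FC = -0.40, standard error 0.21, FDR = 0.327 by limma), or -0.23 without si-circZFR 1 and -0.21 after correction for gene length. *SCARB2*, the receptor that carries glucocerebrosidase to the lysosome, was at 17.5 and 17.6 in NC and at 20.4 and 20.6 in si-circZFR, with a log2FC of 0.21. *LAMP1* and *LAMP2*, which line the lysosomal membrane, overlapped between groups, with log2FC of -0.04 and -0.21.

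The 8 cathepsins, lysosomal proteases, had a median log2FC of -0.13, with 5 below 0 and 2 lower at an unadjusted p under 0.05 (25.0%, against 11.5% of all genes). With the RPKM as deposited, 0 cathepsins were lower at p under 0.05 and 4 were below 0. *CTSA* encodes protective protein, a carboxypeptidase that also stabilises the sialidase NEU1 and the galactosidase GLB1. It was at 63.8 and 59.99 scaled RPKM in NC and at 46.7 and 37.6 in si-circZFR (log2FC = -0.55, standard error 0.18, FDR = 0.172 by limma). *NEU1* was at 29.7 and 31.6 in NC and at 25.2 and 22.7 in si-circZFR (log2FC = -0.35). *GLB1* had a log2FC of -0.40 (-0.22 without si-circZFR 2). Both were lower in each si-circZFR library than in either NC library, as were 28.1% of all genes tested, and neither passed.
*CTSH*, an aminopeptidase, was at 8.02 and 7.59 in NC and at 5.33 and 5.41 in si-circZFR (log2FC = -0.47, standard error 0.15, FDR = 0.172 by limma). Its reads numbered 200, 187, 130 and 141.
*CTSL*, a cysteine endopeptidase, lay on the other side: it was at 166.5 and 165.7 in NC and at 199.4 and 253.0 in si-circZFR (log2FC = 0.43, standard error 0.21, FDR = 0.297 by limma), or 0.28 without si-circZFR 2. The si-circZFR libraries differed more from each other than the NC libraries did. *CTSD*, an aspartic protease and the most abundant cathepsin, was at 310.2 and 341.9 in NC and at 366.4 and 330.3 in si-circZFR, so that its groups overlapped (log2FC = 0.09). The log2FC of the other cathepsins ran from -0.28 (*CTSB*) to 0.11 (*CTSC*).

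Of the 13 other hydrolases and helper proteins, 9 had a log2FC below 0 and 4 above. *PSAP*, the precursor of the saposins that present lipids to their hydrolases, was the most abundant of the 45 genes at 509.8 and 515.7 scaled RPKM in NC and 458.9 and 487.3 in si-circZFR (log2FC = -0.12, 0.06 with the RPKM as deposited).
*GLA*, encoding α-galactosidase A, was the only one at an unadjusted p under 0.05. It was at 65.4 and 88.3 in NC and at 49.1 and 56.0 in si-circZFR (log2FC = -0.53, standard error 0.21, FDR = 0.225 by limma). The NC libraries differed by 0.43 on the log2 scale, NC 2 being the higher, and the log2FC of *GLA* was -0.32 without NC 2. An exon of *GLA* overlaps *RPL36A* on the opposite strand. *RPL36A* was listed at 2.19 to 3.50 scaled RPKM, and whether the counting used strand is not given in the sources used here.
*GAA*, the acid α-glucosidase that degrades glycogen, was at 47.7 and 43.5 in NC and at 57.1 and 64.7 in si-circZFR (log2FC = 0.41, standard error 0.17, FDR = 0.235 by limma). Both si-circZFR libraries also lay above both NC libraries for *GRN*, *ASAH1* and *PPT1*, with log2FC of 0.26, 0.24 and 0.21. This separation applied to 28.1% of all genes tested. GRN is a regulator of lysosomal function, ASAH1 degrades ceramide and PPT1 removes palmitate from proteins. The remaining members ran from -0.30 (*TPP1*, a tripeptidyl peptidase) to -0.06 (*SMPD1*, acid sphingomyelinase), and none passed.

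**Figure D2:**
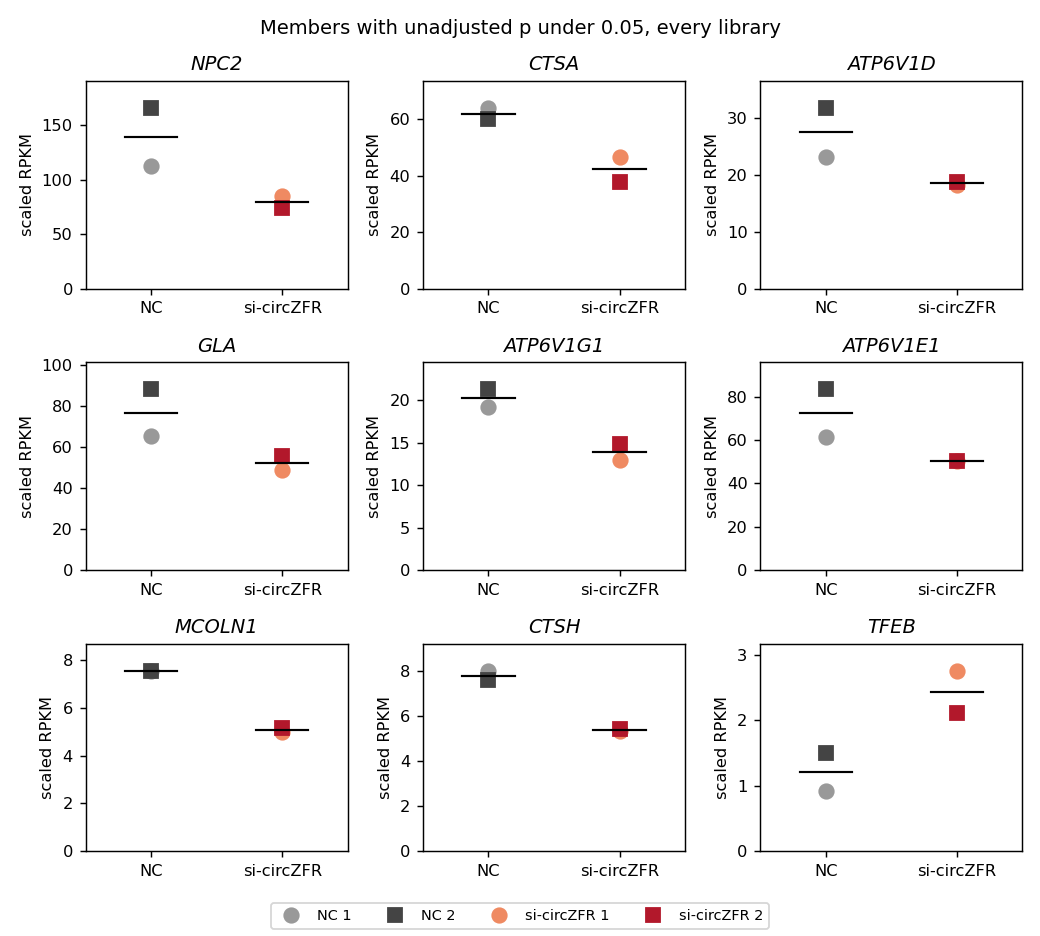
Scaled RPKM (y axis, from 0) of the 9 genes with an unadjusted p under 0.05 in each library, with black bars at the group means (n = 2 each). The 9 genes were picked by this p, which favours separated groups, and for all 9 the groups do not overlap. *TFEB* alone is higher in si-circZFR, and NC 2 lies well above NC 1 for *NPC2*, *ATP6V1D*, *GLA* and *ATP6V1E1*.

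All 15 V-ATPase genes among the 45 had a log2FC below 0, with a median of -0.17, and none passed the threshold. The V-ATPase genes outside the 45 did not show this: of 13 listed, 8 were tested, with 5 above 0 and 3 below. Among these 8, *VMA21*, *CCDC115* and *TMEM199* are not subunits (log2FC of 0.01, -0.10 and -0.34), and *ATP6V1B1* rested on 10 to 59 reads. The median log2FC of the 8 was 0.07, and both si-circZFR libraries lay above both NC libraries for 4 and below for 1. These 8 genes were also longer, with a median of 2791.5 bases against 2088 for the 15. The share of gene length in this contrast was not tested. *TCIRG1*, an alternative a subunit of V0, had a log2FC of 0.27, and *ATP6V1E2*, an isoform of the E subunit, had 0.43, and neither passed. With the RPKM as deposited 8 of the 15 were below 0, and 14 were below the median of all genes. After correction for gene length, 13 of the 15 were below 0 and the median was -0.21. The silenced libraries both lay under the NC pair for 10 of the 15 and over it for none, where each applied to 28.1% of all genes tested. Summed over the 15 genes, scaled RPKM was 702.4 and 871.5 in the NC libraries and 661.9 and 592.6 after silencing. The sums over all genes tested had the same order of libraries, at 520293 and 633443 in NC and 467454 and 395673 in si-circZFR. The lower sum is thus not particular to the 15 genes.

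The 8 genes of the V1 sector had a median log2FC of -0.38, against -0.13 for the V0 sector (0.04 to -0.21 over the alternatives). This difference was not tested. For 7 of the 8, both si-circZFR libraries lay below both NC libraries, as for 28.1% of all genes tested. The V1 median was -0.31 after correction for gene length, -0.21 with the RPKM as deposited, and -0.30 without NC 2. With the RPKM as deposited, 4 of the 8 separated, all lower, where 18.2% of all genes separated lower and 39.6% higher.
*ATP6V1D*, a subunit of the central rotor, was at 23.3 and 31.8 scaled RPKM in NC and at 18.4 and 18.8 in si-circZFR (log2FC = -0.53, standard error 0.19, FDR = 0.203 by limma), with -0.31 without NC 2 and -0.75 without NC 1 (FDR = 0.0499 by limma). *ATP6V1G1* and *ATP6V1E1* encode the ubiquitous G and E subunits of the peripheral stalks. *ATP6V1G1* was at 19.2 and 21.3 in NC and at 13.0 and 14.9 in si-circZFR (log2FC = -0.51, standard error 0.16, FDR = 0.168 by limma).
*ATP6V1E1* was at 61.6 and 83.4 in NC and at 50.6 and 50.4 in si-circZFR (log2FC = -0.50, standard error 0.20, FDR = 0.23 by limma), with -0.29 without NC 2 and -0.72 without NC 1. *ATP6V1F*, another rotor subunit and the shortest of the 45 genes at 817 bases, was at 66.4 and 109.9 in NC and at 63.0 and 40.4 in si-circZFR. Its log2FC of -0.75 had a standard error of 0.32 (FDR = 0.251 by limma), and replicates in both groups lay far apart. It was -0.39 without NC 2, -1.11 without NC 1, -0.42 without si-circZFR 2 and -0.42 after correction for gene length.
The catalytic subunit gene *ATP6V1A* and its partner *ATP6V1B2*, which form the ATP-hydrolysing ring, had log2FC of -0.17 and -0.15. *ATP6V1C1*, a stalk subunit, and *ATP6V1H*, a regulatory subunit, were at -0.09 and -0.26.

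In the V0 sector, the proton channel, the 5 genes had a median log2FC of -0.13 and none was at an unadjusted p under 0.05. This median was -0.04 without si-circZFR 2 (3 of the 5 then below 0), -0.21 without NC 1, -0.09 after correction for gene length and 0.04 with the RPKM as deposited (2 of the 5 below 0). *ATP6V0E1* was at 128.3 and 212.1 scaled RPKM in NC and at 124.9 and 115.8 in si-circZFR. Only NC 2 stood clearly above the other 3 libraries, and the log2FC was -0.45 (standard error 0.28, FDR = 0.384 by limma), with -0.10 without NC 2, -0.82 without NC 1 (FDR = 0.0558 by limma) and -0.15 after correction for gene length.
*ATP6V0B*, a subunit of the proteolipid ring, was at 28.2 and 32.5 in NC and at 24.3 and 22.5 in si-circZFR (log2FC = -0.36, standard error 0.16, FDR = 0.264 by limma). *ATP6V0C*, the main proteolipid of the ring, overlapped between groups at 133.2, 149.1, 136.2 and 121.7, and its log2FC of -0.13 became 0.07 after correction for gene length and 0.04 with the RPKM as deposited. *ATP6V0A1* and *ATP6V0D1* had log2FC of -0.01 and -0.07.
The accessory protein genes lay close to 0. *ATP6AP1* was at 70.0 and 70.1 in NC and at 74.7 and 56.6 in si-circZFR (log2FC = -0.11, 0.07 with the RPKM as deposited, 0.10 without si-circZFR 2). *ATP6AP2* was at 26.0 and 26.4 in NC and at 23.3 and 23.6 in si-circZFR (log2FC = -0.15, 0.01 with the RPKM as deposited).
Per length, mean levels in NC ran from 8.79 scaled RPKM for *ATP6V1A* to 170.2 for *ATP6V0E1*. *ATP6V0C*, next in order at 141.1 ± 11.3, lay within the spread of *ATP6V0E1* (SD 59.3, n = 2). *ATP6V1A* and *ATP6V1C1*, the lowest pair, were at 8.79 ± 0.943 and 10.3 ± 0.326 (SD, n = 2), and their NC values did not overlap.

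**Figure D3:**
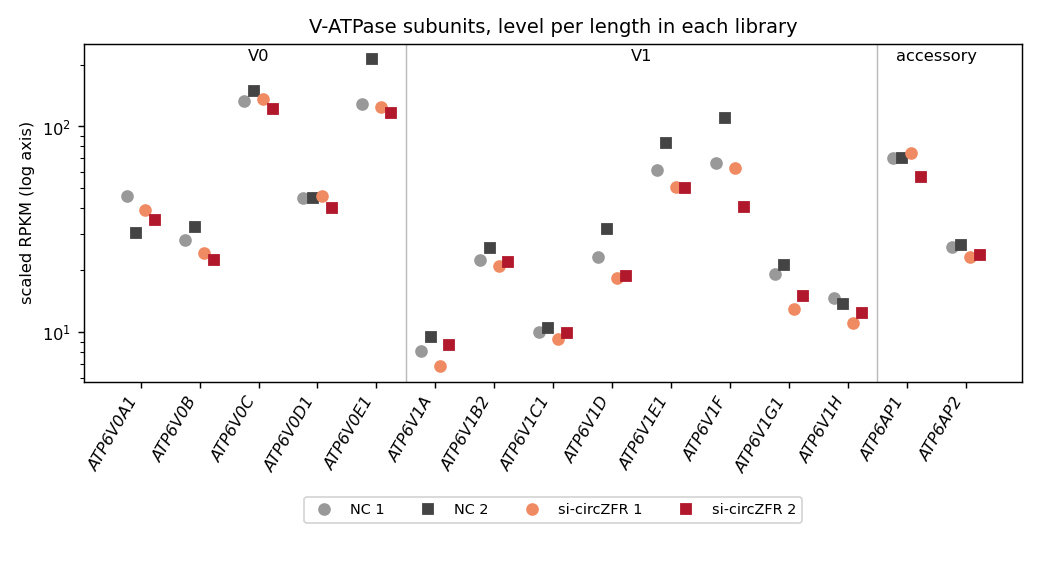
Scaled RPKM (y axis, log scale) of the 15 V-ATPase genes in each library, ordered by sector. The levels per length span from 6.81 (*ATP6V1A* in si-circZFR 1) to 212.1 (*ATP6V0E1* in NC 2). The si-circZFR points lie below both NC points for 7 of the 8 V1 genes, as for 28.1% of all genes tested.

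Gene length moved with these values. The 9 genes with a recovered length under 1500 bases had a median log2FC of -0.45 and a median difference NC 2 minus NC 1 of 0.43, while the other 36 had medians of -0.15 and 0.07. The recovered lengths of *LAMP1* and *PPT1* (1270 and 1252 bases) are probably too short by a whole factor, which also bears on the length correction of these genes. Without them the short genes numbered 7, with medians of -0.50 and 0.43. Across the 45 genes, Spearman's rho of length with the log2FC was 0.356 (0.441 without *LAMP1* and *PPT1*), and across the 15 V-ATPase genes it was 0.543 (descriptions across genes that share the same 4 libraries). The part of this trend in the group difference was not tested beyond the correction for length, under which the median of the 45 genes was -0.19. Copies of a gene can share reads as well: the listed pseudogenes of *ATP6V1E1* reached 7.61 scaled RPKM and those of *GUSB*, β-glucuronidase, 5.81. These levels are per length of the copy and do not bound the error in the parent gene. In recovered reads, *GUSBP11* had 233 and *GUSB* 656 in NC 1, and *ATP6V1E1P1* had 60 and *ATP6V1E1* 1358 in NC 2. How many reads were shared was not tested. Exons of 8 of the 45 genes overlap a listed gene on the opposite strand, among them *NPC2* with *ISCA2*, an iron-sulfur cluster protein gene at 13.4 to 25.9 scaled RPKM (log2FC = -0.60), and *CTSA* with *PLTP*, a phospholipid transfer protein gene at 1.09 to 1.47. Without strand, reads from the shared stretch of such pairs cannot be told apart. *MCOLN1* overlaps *PNPLA6* on the same strand, where strand would not separate them.

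**Figure D4:**
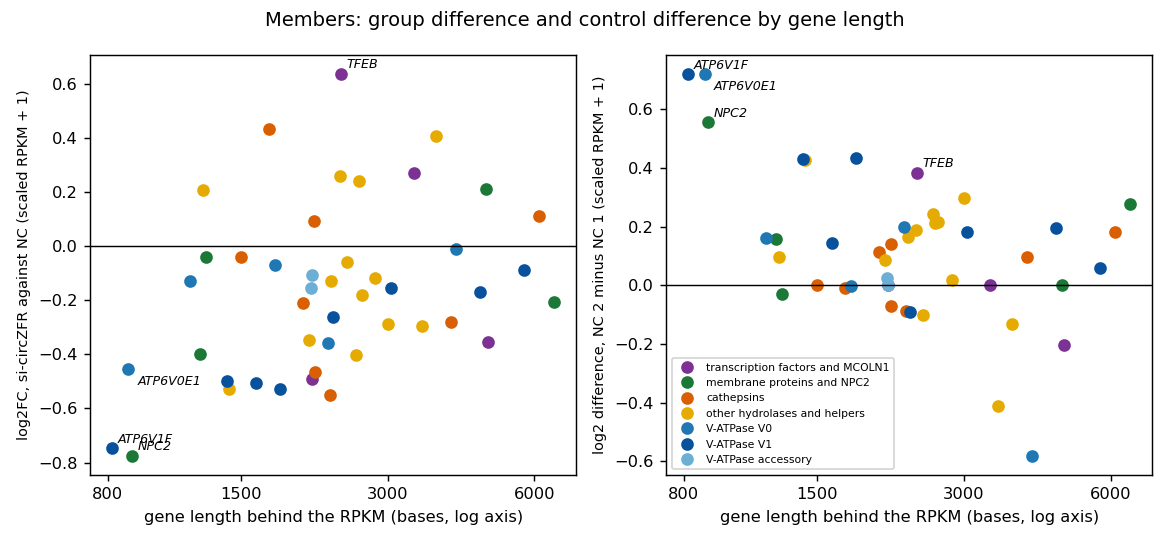
Gene length behind the RPKM (x axis, log scale) against the log2FC of si-circZFR against NC (left) and against the difference NC 2 minus NC 1 on the same log2 scale (right), 1 point for each of the 45 genes. The shortest genes, *ATP6V1F*, *ATP6V0E1* and *NPC2*, are among the lowest on the left (-0.75, -0.45 and -0.77) and are the highest on the right (0.72, 0.72 and 0.56).

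The members with an E-box in the promoter were also compared by description. The 11 genes with CACGTG had a median log2FC of -0.35, with 9 below 0, and the 24 genes whose promoter window lacked it had a median of -0.13, with 17 below 0. The 6 genes shown above with TCACGTGA, the fuller match, had a median of -0.28. Of them, 5 were below 0 and *GAA* was above, over a range from -0.55 (*CTSA*) to 0.41 (*GAA*). These differences, and the share of gene length in them, were not tested.
The 3′UTRs (GENCODE 44, 1 transcript per gene) were searched on the transcript strand for CTGACTCA, for its first 7 letters (CTGACTC), for its last 7 (TGACTCA) and for the 6 that both share (TGACTC). These were chosen because an earlier analysis of the same libraries had met them in the 3′UTRs of some of the genes with the lowest log2FC, so they are a description here. Over 10446 genes tested with a 3′UTR, the median log2FC was -0.10 for the 382 genes with CTGACTCA and 0.03 for the others. It was -0.05 for those with CTGACTC, -0.04 for those with TGACTCA and close to 0 (-0.0028) for those with TGACTC. None of the 45 genes held CTGACTCA, against 3.66% of the genes tested. CTGACTC was held by 2 of the 45 (4.44%, against 11.3%) and TGACTCA by 3 (6.67%, against 11.7%). The 3′UTRs of the 45 genes were shorter, with a median of 748 bases against 1319. The 2 sites of CTGACTC and the TGACTCA of *CTSH*, the only gene with such a 7-base site that was at an unadjusted p under 0.05, are shown with the site in capitals (GRCh38, transcript strand).
*LAMP2*, chrX:120428595-120428621, minus strand: gaatgttctgCTGACTCtgacctcaac
*ATP6V0B*, chr1:43978191-43978217, plus strand: gctgctgctgCTGACTCtgtgcagctg
*CTSH*, chr15:78921729-78921755, minus strand: tcctgggccaTGACTCAaaccaggtct
The log2FC of these 3 genes was -0.21, -0.36 and -0.47. *MCOLN1*, *NPC2*, *CTSA*, *GLA* and the 3 V1 genes at an unadjusted p under 0.05 held none of the 4 sequences in the 3′UTR. TGACTC, which each of the 4 contains, was held by 6 of the 45 (13.3%, against 29.1% of the genes tested). Most genes thus hold none of the 4.

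A further 73 lysosome genes outside the 45 were listed for comparison, and 67 of them passed the filter. None passed the threshold by limma. At an unadjusted p under 0.05, 4 were lower and 2 higher, 5.97% and 2.99% of the 67, against 11.5% and 10.1% of all genes tested. Their median log2FC was 0.03, with 29 below 0 and 38 above.
The smallest p among them belonged to *PLA2G15*, a lysosomal phospholipase, at 7.26 and 8.18 scaled RPKM in NC and 4.36 and 4.98 in si-circZFR (log2FC = -0.62, standard error 0.17, FDR = 0.13 by limma). *LAPTM4B*, a membrane protein of late endosomes, was at 115.3 and 139.0 in NC and at 81.5 and 73.9 in si-circZFR, with a log2FC of -0.70. For both genes the groups did not overlap, si-circZFR being lower, as for 28.1% of all genes tested. *CTNS*, the lysosomal cystine transporter, was at 6.37 and 6.14 in NC and at 4.04 and 3.85 in si-circZFR (log2FC = -0.55). *LAMTOR5*, a subunit of the Ragulator complex that anchors mTORC1 to the lysosome, was at 42.4 and 48.2 in NC and at 32.7 and 30.7 in si-circZFR (log2FC = -0.50). *ARSA*, arylsulfatase A, lay on the other side at 3.64 and 3.62 in NC and 5.50 and 6.57 in si-circZFR (log2FC = 0.60, standard error 0.17, FDR = 0.141 by limma).
The group of other lysosomal membrane proteins had a median log2FC of 0.24, with 10 of 13 above 0, and the 14 genes of Ragulator, the Rag GTPases and folliculin had a median of 0.01. The 67 other lysosome genes had a median length of 2789 bases and the 13 membrane genes among them 4226, against 2287 for the 45. The difference between these genes and the 45 was not tested.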

How the data were processed

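The sample titles gave the group and the replicate number of each library. The authors sequenced total RNA on the Ion Proton, aligned the reads (hg38 in the article, GRCh37 in the submitters' processing notes) and deposited RPKM values, 1 per gene and library. The aligner, annotation and strand setting are not given in the sources used here, and the article names SVA and edgeR for steps after alignment. Because the deposited values are RPKM, limma 3.58.1 (R 4.3.3) was run on log2(scaled RPKM + 1) with a trended prior variance over the 13885 genes that reached an RPKM of 1 in 2 or more libraries, with Benjamini-Hochberg adjustment (FDR) over all of them. Scaling used unweighted trimmed means, with 30% of the log ratios and 5% of the levels removed at each end. No source says that the libraries came from separate cultures, so p-values measure the spread between these libraries. Members and lists were chosen with earlier results of these data known.

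Reads were recovered from library totals fixed by small RNA genes of known length and, per gene, the shortest length giving whole reads (tolerance 0.001), which succeeded for 24282 of 24289 genes above 0. Tested on simulated data, the recovery was exact for 960 of 1000 genes, so a gene's reads can be too few by a whole factor. In a simulation of si-circZFR against NC with 13793 genes tested, limma called 166 of 187 changed genes and 193 genes in all. Some of these calls thus fell on unchanged genes. In the deposited libraries, limma called only 8 of 13885 genes. The share called in the simulation is therefore no measure of power for the lysosome and V-ATPase genes, which was not tested. Alternatives covered scaling, filter, pseudocount, prior variance, limma-voom, replicate block, gene length (lowess) and leaving out each library. Genes named are those at an unadjusted p under 0.05, the 3 with the smallest p and the most abundant 1 of each role, TFEB, TFE3, MITF, the 3 with the largest |log2FC|, the 5 other lysosome genes with the smallest p, and ZFR; others named were chosen after their values were seen. Tables and figures were made in Python 3.11.15 with pandas 2.3.3 and matplotlib 3.10.9.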

Additional observations from a re-analysis of the deposited data

How the results depend on the processing

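No member passed the threshold except without NC replicate 1, where NPC2 did (range 0 to 1 over the 4 fits that leave out a library). The number of members lower at an unadjusted p under 0.05 was 8, 1 with the RPKM as deposited (6.94% of all genes) and 0 to 12 when a library was left out (12 without NC replicate 1, where 16.9% of all genes were lower at that level and 6.93% passed the threshold; 0 without si-circZFR replicate 2, with 4.68%). The number of members higher was 1 (10.1% of all genes) and 5 as deposited (15.4%). It was 3 with the length correction (10.6%), 2 with limma-voom (11.8%) and 2 with upper quartile scaling (11.7%). Of the 9 members at p under 0.05, 7 were shared with the length correction, 9 with limma-voom, 2 with the RPKM as deposited and 0 without si-circZFR replicate 2.

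The median log2FC of the members was -0.17, -0.0115 as deposited (-0.16 relative to all genes) and -0.22 to -0.11 when a library was left out. For the V-ATPase members it was -0.17, -0.0115 as deposited, and -0.29 to -0.15 when a library was left out (-0.25 without NC replicate 1, -0.29 without si-circZFR replicate 2). For the hydrolase members it was -0.13, 0.0386 as deposited (-0.11 relative to all genes) and -0.18 to -0.10 when a library was left out. Among other lysosome genes, 4 were lower (2 as deposited, 0 to 6 when a library was left out) and 2 higher (7 as deposited, 4 with the length correction, 5 with limma-voom, 4 with the replicate block, 0 to 15 when a library was left out). The cause of these moves was not tested.

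Of 420 pairs of a named gene and an alternative, 6 changed sign. With the RPKM as deposited, ATP6AP1 was at 0.0657, ATP6AP2 at 0.0128, ATP6V0C at 0.0434 and PSAP at 0.0573. With the length correction ATP6V0C was at 0.0734, and without si-circZFR replicate 2 ATP6AP1 was at 0.10. Whether the replicate numbers pair the samples was not settled. The differences between replicates of both groups correlated at 0.0694 across 13885 genes. This value cannot decide it, because the NC difference followed gene length (Spearman's rho -0.344) and the si-circZFR difference did so little (0.0188). With the replicate block 0 members passed, 9 members were at p under 0.05 (9 shared), and all genes past the threshold numbered 63 against 8. Over the alternatives all genes past the threshold ran from 0 to 937, with 302 by limma-voom and 177 with the CPM filter. With 1 library left in a group, the spread comes from the other group.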
